A study of Caenorhabditis elegans with 2 samples.

Results

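Chromatin sites recovered with tagged CEH-43 that ranked by signal next below the authors' thresholded peaks were examined. Whether CEH-43 binds each of them was not tested. They are the peaks among the 3000 of highest signal in the relaxed list made from both replicates that are not among the thresholded peaks, which were exactly the highest peaks of that list of 30000. Of the rows taken, none was mitochondrial and 52 (2.60%) had a summit within 100 bp of a tRNA gene and were dropped, which left 1950 sites. The members were chosen by the authors' own signal value, so their signal is given as a description only.

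CEH-43 is a homeodomain transcription factor of the nematode Caenorhabditis elegans that belongs to the Distal-less (Dlx) family. The family is known for roles in head and nervous system development, and genetics places CEH-43 among the factors that dopamine neurons need. Homeodomains of this family bind short AT-rich DNA with the core TAAT, typically followed by TA or TG. Chromatin immunoprecipitation with sequencing recovers DNA bound directly by the tagged protein and also DNA reached through other proteins or open chromatin.

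The samples were 2 biological replicates of 1 group: mixed-sex, mixed-stage embryos obtained by egg bleaching, with a stated age of 3 hours, of strain OP699. Its genotype is unc-119(tm4063) with the transgene wgIs699, which carries ceh-43::TY1::EGFP::3xFLAG and an unc-119(+) rescue gene, and both replicates therefore share the mutation, the tagged protein and the rescue gene. The fluorescent tag was precipitated from whole embryos, so a site cannot be placed in a cell type. An untagged strain was not analysed here, and the share of sites that would also appear without the tag was not tested.

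The signal of the 1950 sites ran from 139 down to 94.5, with a median of 108, against a median of 180 for the 821 thresholded peaks under the same filters and 53.6 for the whole list. Just outside the upper edge, the last thresholded peaks, nearest to rpn-13 and rhgf-2, had signals of 139.317 and 139.307, and just inside it the first 2 sites, nearest to cdh-4 and ech-6, had 139.285 and 139.262. At the lower edge, rank 3000 (nearest to cua-1) had 94.4744 and the next row (gly-4) 94.4685. The signal did not step at either edge. The deposited −log10 q-value of the sites ran from 0.946 to 2.04 with a median of 1.47, and 144 of them, the last at rank 1185, were at or above the lowest thresholded value of 2.00.

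The sequences of the strongest sites show the word on which the comparisons below turn. These are 5 of the sites of highest signal that held the core word, TAATTA or TAATTG on either strand, within 50 bp of the summit, had a summit in both replicates and a gene start within 2000 bp. Each is the 101 bases around the summit on the forward strand of the ce11 assembly, from RefSeq, with the core word in capitals.
flp-15, chrIII:13668742-13668842: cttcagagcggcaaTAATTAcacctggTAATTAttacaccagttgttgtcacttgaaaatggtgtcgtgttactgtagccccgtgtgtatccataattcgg
pxf-1, chrIV:10172556-10172656: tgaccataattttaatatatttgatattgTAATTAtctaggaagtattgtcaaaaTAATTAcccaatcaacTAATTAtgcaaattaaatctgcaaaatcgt
tsp-14, chrX:4869880-4869980: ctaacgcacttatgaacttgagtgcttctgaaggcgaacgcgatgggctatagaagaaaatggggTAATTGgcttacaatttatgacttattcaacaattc
cyn-12, chrIV:7133294-7133394: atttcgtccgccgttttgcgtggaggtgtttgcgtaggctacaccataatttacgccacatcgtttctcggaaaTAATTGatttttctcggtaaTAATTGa
tbx-11, chrIII:6048275-6048375: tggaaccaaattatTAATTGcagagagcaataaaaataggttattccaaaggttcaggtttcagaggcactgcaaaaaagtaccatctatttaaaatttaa
The number of copies differed between them: 3 at pxf-1, 2 at flp-15 and cyn-12, and 1 at tsp-14 and tbx-11.

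The first and last sites of the range are shown for the edges of the rule, and both held the word.
cdh-4, first site, chrIII:4515307-4515407: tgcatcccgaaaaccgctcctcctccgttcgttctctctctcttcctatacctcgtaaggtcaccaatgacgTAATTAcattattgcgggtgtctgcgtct
cua-1, last site, chrIII:13448841-13448941: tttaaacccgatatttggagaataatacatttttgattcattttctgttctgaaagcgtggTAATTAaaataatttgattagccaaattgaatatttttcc

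The homeodomain core word was more frequent at the summits than beside them. It was present within 50 bp of the summit in 758 of the 1950 sites (38.9%, exact 95% interval 36.7 to 41.1%) and in 10.7% of windows of the same width 500 bp away (mean of both flanks), a 3.64-fold difference. Over the whole relaxed list 25.9% of summits held it, and 12.4% of windows of that width along the genome. With 1 flank per site, 673 sites held the word at the summit only and 123 at the flank only (exact McNemar test, 2-sided, p = 1.5e-92). The test treats sites, not embryo cultures, as its units.

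Both forms of the word contributed. TAATTA was at 20.4% of summits against 3.49% of the tested flanks (exact McNemar p = 1.2e-63), and TAATTG at 24.2% against 7.64% (exact McNemar p = 1.6e-45). The shorter core TAAT alone was at 71.5% against 60.8% (exact McNemar p = 4.8e-13). In the sites with the word, the nearest copy lay at a median of 16.5 bp from the summit, against 24.5 bp from the flank centre in flanks with it. At 244 sites (12.5%) there were 2 or more copies, against 0.872% of flanks.

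**Figure D1:**
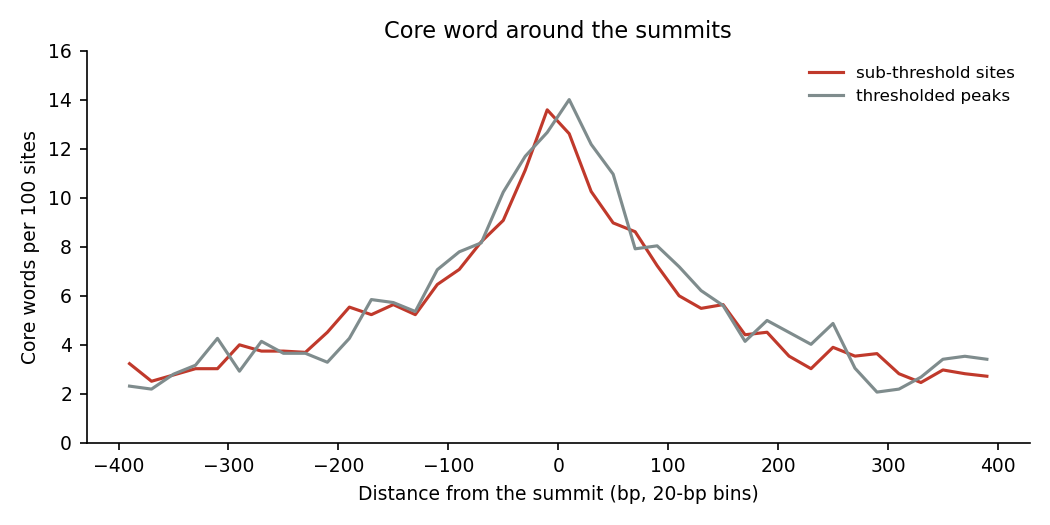
Copies of TAATTA or TAATTG per 100 sites (y axis) in 20-bp bins by distance from the summit in bp (x axis), for the sub-threshold sites (red) and the thresholded peaks (grey). For the red line the highest bin, just below the summit, held 13.6 copies per 100 sites and the outermost bins 3.23 and 2.72.

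The bases next to the word are given as a description. Over 580 copies of TAATTG at summits, read in its own orientation, the base before it was T in 42.4% and A in 34.1%, against 32.1% and 39.8% over 299 copies in both flanks together. The base after it was C in 26.9% and G in 26.6%, against 18.4% and 15.4% in flanks.

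Whether the sub-threshold sites differed in this from the peaks around them was then compared. The thresholded peaks held the word at 37.6% of summits, 1.23 points less than the sub-threshold sites, with an interval of the difference from -2.75 to 5.15 points (Fisher's exact test, 2-sided, adjusted p = 0.55).  The direction turned where only TAATTA was counted, outside promoters and in the list of replicate 2 alone. In promoters the sub-threshold sites held the word at 32.8% and the thresholded peaks at 28.1% (Fisher's exact p = 0.10). Outside promoters the shares were 42.8% and 47.6% (Fisher's exact p = 0.092), and this split was chosen after seeing the data. An equal number of rows next in the list, 1975 after the same filters, held it at 32.8%. The sub-threshold sites were higher by 6.11 points (3.11 to 9.10, adjusted Fisher's exact p = 1.5e-04).

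Within the range itself the share did not fall steadily. In 4 successive bins of about 500 ranks it was 41.6%, 37.96%, 36.7% and 39.4%, with intervals that overlap. Further down the list it was 30.002% from rank 5003 to 10000, 23.6% from there to rank 20000 and 21.4% from there to rank 30000. In the last of these bins the flanks held 10.8%.

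**Figure D2:**
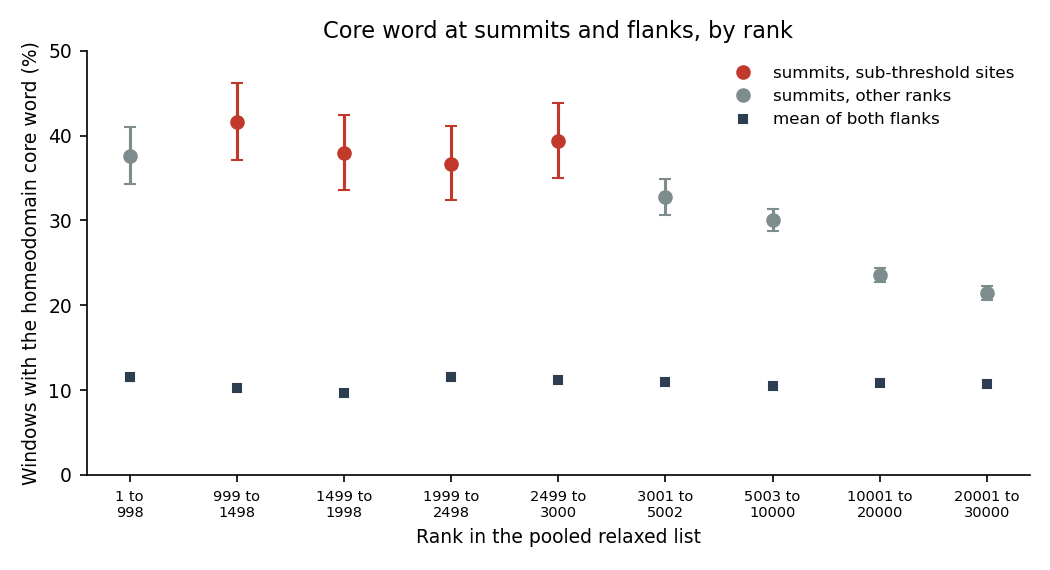
Share of summit windows with TAATTA or TAATTG in percent (y axis) by rank in the relaxed list (x axis), with exact 95% intervals; red points are the sub-threshold sites, grey points other ranks, and dark squares the mean of both flanks. The 4 red points lie between 36.7 and 41.6%, and the squares below them between 9.69 and 11.5%.

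Replicate support was high but the replicates ranked the sites differently. Of the 1950 sites, 1610 (82.6%, 80.8 to 84.2%) had a summit within 100 bp in both replicates' own lists, 152 in replicate 1 only, 180 in replicate 2 only and 8 in neither. The share was 95.2% for the thresholded peaks, 72.1% for the next rows and 29.2% for the whole relaxed list. The pooled list was made from both replicates' reads, so this support is not independent of the rule. Only 367 sites (18.8%) were among the 3000 highest of both replicates, while 1017 were among the 3000 highest of replicate 1 and 1033 of replicate 2. The median rank was 2540.5 in replicate 1, with a worst rank of 28723, and 2553 in replicate 2, with a worst rank of 25484. With support within 50 bp the share in both replicates was 55.6%, and with 200 bp it was 95.7%.

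**Figure D3:**
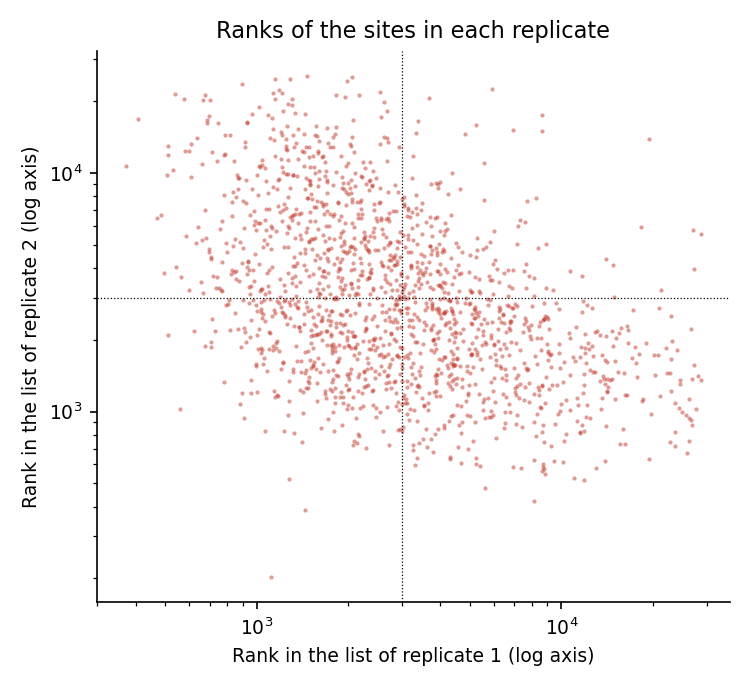
Rank in the list of replicate 2 (y axis, log) against rank in the list of replicate 1 (x axis, log) for the 1610 sites with a summit in both; each point is a site and dotted lines mark rank 3000. Most points lie beyond rank 3000 in at least 1 replicate, and 367 lie inside it in both; the range of pooled signal bounds the points on both sides.

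The core word separated the replicates as well. Sites found in replicate 1 only held it at 49.3% of summits and those found in replicate 2 only at 26.7%, a difference of 22.7 points (12.2 to 32.5, Fisher's exact p = 2.3e-05, a comparison chosen after seeing the data). This test takes sites as its units and does not measure variation between embryo cultures. The same range of ranks in each replicate's own list showed the same order: 46.9% against 10.2% in tested flanks for replicate 1 (exact McNemar p = 1.1e-137), and 27.02% against 11.5% for replicate 2 (p = 1.7e-34). The word was higher at summits than at flanks in each replicate. The lists give no read depth, and its part in the difference between replicates was not tested. Sites in both replicates held the word at 39.3% and all others at 37.1% (adjusted Fisher's exact p = 0.46, difference -3.56 to 7.71 points).

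The sites lay less often in promoters than the thresholded peaks and more often inside genes. Promoters, taken as the 1000 bp upstream of a protein-coding start, held 765 sites (39.2%, 37.1 to 41.4%) against 51.2% of thresholded peaks (Fisher's exact test, adjusted over 7 classes, p = 5.6e-08). Over the whole relaxed list 28% of summits were in promoters. Introns held 27.7% against 21.1% (adjusted Fisher's exact p = 5.2e-04), coding exons 5.49% against 1.71% (7.2e-06) and 3′ UTRs 2.62% against 0.609% (5.2e-04). Other transcripts held 2.21% against 4.14% (adjusted Fisher's exact p = 0.010). For intergenic sites, 21.3% against 20.3%, and 5′ UTRs, 1.38% against 0.974%, the difference did not pass the threshold (adjusted Fisher's exact p = 0.57 and 0.53). In the next rows promoters held 31.7% and coding exons 9.97%.

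**Figure D4:**
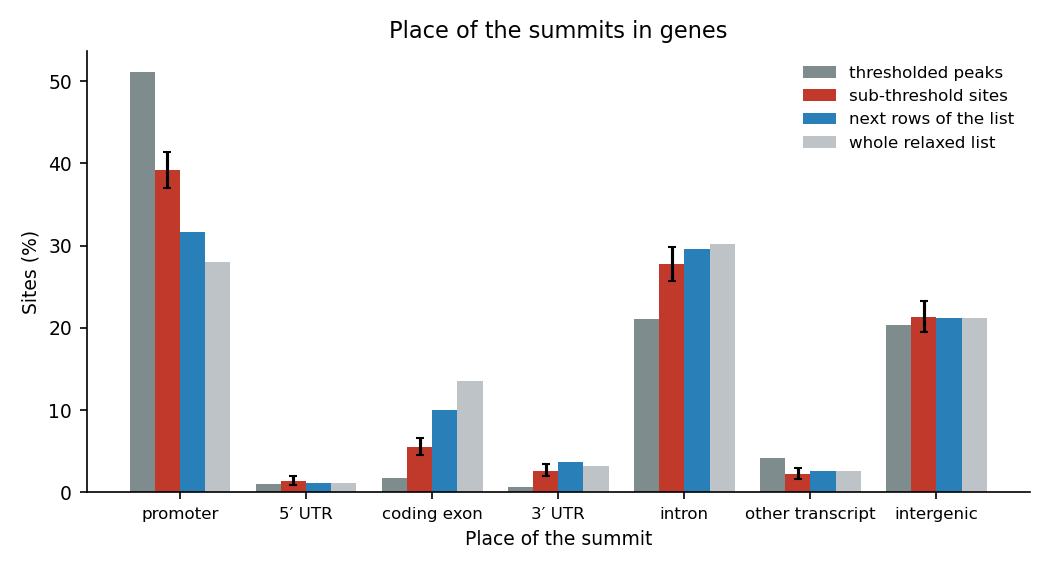
Share of sites in percent (y axis) in each of 7 places in genes (x axis) for the thresholded peaks, the sub-threshold sites with exact 95% intervals, the next rows and the whole relaxed list. The promoter share steps down from 51.2 to 39.2, 31.7 and 28% in that order.

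Promoter sites held the core word least often of the larger classes. It was at 32.8% of summits in promoters and 42.8% elsewhere, a difference of -9.97 points (-14.3 to -5.57, Fisher's exact test adjusted over 6 features, p = 5.8e-05). Intergenic sites held it at 45.9% against 36.96% of the others (adjusted Fisher's exact p = 0.0030) and intronic sites at 42.7% against 37.4% (adjusted p = 0.050, just above the threshold). These 3 comparisons share sites and are not independent. Each of the 3 classes held it above its own flanks: 3.08-fold in promoters, 3.505-fold between genes and 4.62-fold in introns (exact McNemar p = 2.5e-23, 1.8e-28 and 1.7e-32).

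A neighbouring thresholded peak went with fewer core words. The 158 sites (8.10%) within 2000 bp of a thresholded summit held it at 27.8%, against 39.8% of the other 1792 (difference -11.996 points, -18.8 to -4.21, adjusted Fisher's exact p = 0.0057). On the X chromosome, which held 330 sites (16.9%, against 17.7% of nuclear length), the share was 34.5% against 39.8% on autosomes (adjusted Fisher's exact p = 0.099). By chromosome it ran from 34.5% on X to 45.3% on IV.

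Other words were searched on both strands in the same windows. Of 6 words for other factor classes, 2 were higher at summits than at flanks after adjustment over 19 words: GAGAGA, a repeat of the kind that GAGA factors bind in flies, at 10.97% against 6.26% (adjusted exact McNemar p = 1.0e-06), and CCGGAA, the ETS-type core, at 8.05% against 5.38% (adjusted p = 0.0017). TGATNNAT, a PBX-type word, was lower, at 5.18% against 7.69% (adjusted exact McNemar p = 0.0046), as was the word TGATAA that factors of the GATA family bind, at 6.46% against 8.46% (adjusted p = 0.036). The E-box CANNTG, at 32.7% against 31.5%, and TGACTCA, an AP-1-type word at 0.718% against 0.821%, did not pass (adjusted exact McNemar p = 0.50 and 0.86). In windows at most 50% soft-masked, a run chosen after seeing the data, CANNTG was at 36.9% against 32.5% and passed (adjusted exact McNemar p = 0.028). The CCGGAA count rested on repeated sequence, described next.

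A group of sites shared stretches of sequence with one another. In 66 sites the summit window held a run of 20 bases found in at least 4 other members, against 11 flanks, and 1 such run was in 17 windows. Of the 66, 53 (80.3%) held CCGGAA and 8 (12.1%) the core word, and 37 lay in introns. Among the other 1884 sites CCGGAA was at 5.52% of summits and 4.88% of flanks (exact McNemar p = 0.41, a comparison chosen after seeing the data), and the core word at 39.8%. Windows over 50% soft-masked as repeats in RefSeq numbered 480 (24.6%), against 30.3% of flanks and 14.4% of thresholded peaks. In the windows at most 50% soft-masked, CCGGAA was at 4.29% of summits against 4.42% of flanks. How reads from repeated sequence were placed is not stated in the labels or lists, so the position of these 66 sites is uncertain. A pair of them is shown with the CCGGAA word (TTCCGG on the other strand) in capitals.
D1069.3, chrII:346679-346779: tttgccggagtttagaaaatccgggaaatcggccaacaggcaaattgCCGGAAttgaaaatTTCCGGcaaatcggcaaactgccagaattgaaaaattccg
cnt-2, chrIII:10670661-10670761: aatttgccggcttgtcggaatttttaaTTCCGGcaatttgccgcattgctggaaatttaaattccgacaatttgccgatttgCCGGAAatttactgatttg

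Words with the same bases as TAATTA in another order did not all follow it. Of 13 such words, 3 were higher at summits (AATTAT at 26.8% against 15.5%, ATTAAT at 10.97% against 5.23% and ATTATA at 11.3% against 8.46%) and 4 were lower, among them AAATTT at 19.2% against 26.4%. All 3 can share 4 or more bases with an overlapping copy of TAATTA, so they are not separate evidence. Among all words of 6 bases, 269 (12.9%) were higher and 222 (10.7%) lower at summits after adjustment. The 2 with the lowest p were TAATTA (adjusted exact McNemar p = 2.4e-60) and CAATTA, the reverse complement of TAATTG (1.7e-42). CCCCCC was at 4.82% against 0.821% (adjusted exact McNemar p = 7.1e-13) and AAAAAA, the lowest among the lower words, at 29.1% against 41.7% (1.3e-14). Summit windows had a median of 40.6% G and C, with a median excess of 3.96 points over the flank.

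Assigned to the nearest protein-coding start within 2000 bp, 1392 of the sites (71.4%) reached 1260 genes, 6.3% of the 19985 protein-coding genes. The median distance to the nearest start was 938.5 bp, against 670 bp for the thresholded peaks. Of the 1260 genes, 95 were also reached by a thresholded peak, which is 7.54% of these genes and 16.8% of the 564 genes of the thresholded peaks. Over all 19985 protein-coding genes, thresholded peaks reached 564. The other 1165 genes were not reached by any of the 821 thresholded peaks left by the same filters. The 154 nuclear thresholded peaks at tRNA genes were not assigned to genes, here or for the genes named below. Each summit was counted for its nearest start only, so a thresholded peak nearer to another gene's start can still lie within 2000 bp. A site with the core word reached 489 genes, and 408 of them through a site found in both replicates.

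Gene lists of known pathways and cell types were counted against that 6.3%. The lists were chosen with earlier results of these data known, so the counts are a description and not independent support. Wnt pathway genes were reached at 11 of 30, cadherins at 4 of 12, neuronal fate factors without a homeobox at 8 of 26, epidermis genes at 8 of 34, axon guidance and matrix genes at 8 of 41, Notch pathway genes at 3 of 15 and homeobox genes at 13 of 94. Muscle genes were reached at 4 of 21, pharynx genes at 2 of 9, glia genes at 2 of 10 and GATA factors at 2 of 11. Near or under the share of all genes were collagens at 6 of 156, nuclear receptors at 12 of 269, neuropeptides at 6 of 140 and chemoreceptors at 18 of 1308. No gene was reached of 14 in the dopamine list, 14 in the ETS, PBX and Meis list, 17 in the intestine list or 21 in the germ line list. The length of DNA nearest to each gene's start differs between lists, and its part in these counts was not tested.

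**Figure D5:**
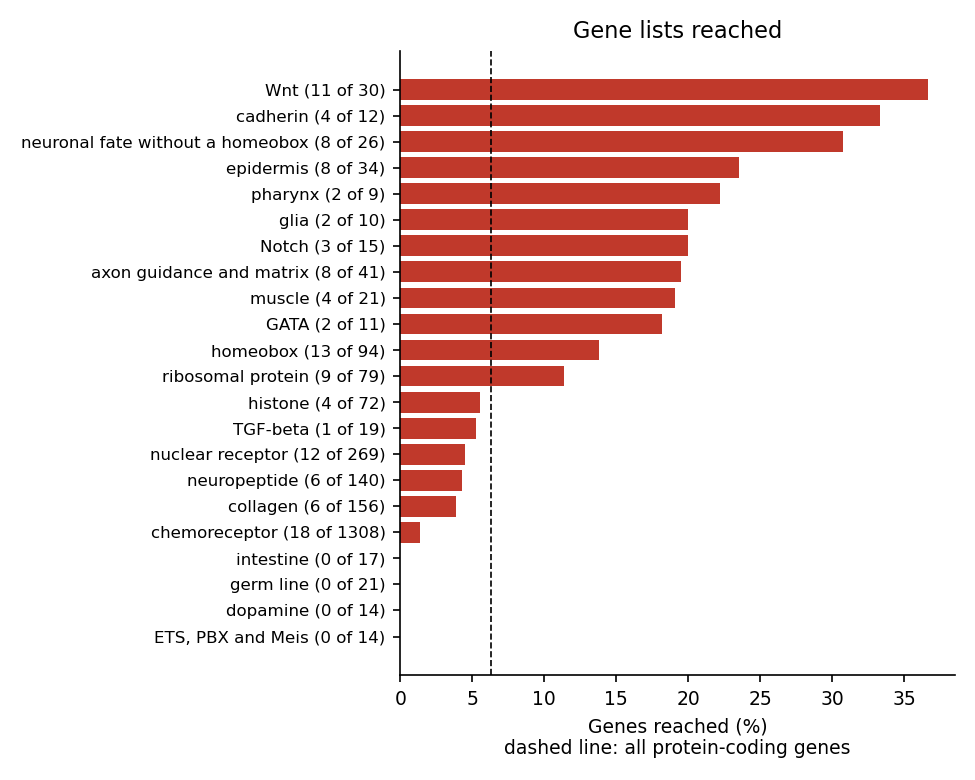
Share of each gene list reached within 2000 bp by a sub-threshold site in percent (x axis), with counts beside each list (y axis); the dashed line is the 6.3% of all protein-coding genes. Wnt genes have the longest bar, 11 of 30, and 4 lists have none.

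The 4 Wnt pathway genes with the strongest of the 11 sites were dsh-2, lin-17, vang-1 and mig-1. The Frizzled receptor genes lin-17 and mig-1 had sites 1011 and 983 bp downstream of their starts, in introns, both with the core word. At lin-17 the signal was 122 in the pooled list, 47.5 in replicate 1 and 71.5 in replicate 2, and at mig-1 it was 115.3 in the pooled list and 70.0 in replicate 2, with no summit in replicate 1. The Dishevelled gene dsh-2 had a site 257 bp upstream (signal 128.7, and 39.6 and 93.1 in replicates 1 and 2), and the planar polarity gene vang-1 one 387 bp upstream (120.7, and 61.5 and 58.1), neither with the word. Of the 11 Wnt sites 3 held it, against 38.9% of all the sub-threshold sites, a difference that was not tested. The scale of the signal is not stated for any list, so signals are not compared across lists.

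The 3 Notch pathway genes reached had 5 sites, of which 1 held the core word. The share over all the sub-threshold sites was 38.9%, and 5 sites are too few to compare. The strongest site of each lay at the ligand gene lag-2 (609 bp upstream, pooled signal 100), the presenilin gene sel-12 (456 bp upstream, signal 102, found in replicate 2 only) and the nuclear cofactor gene sel-8 (547 bp upstream, signal 112, with the core word). In TGF-beta signalling, 1 of 19 genes was reached: daf-3, a SMAD gene, by a site 1338 bp upstream with the word. These 4 sites ranked higher in replicate 2 than in replicate 1. Of the other Notch sites, one 1397 bp downstream of sel-8 (signal 107) also ranked higher in replicate 2, and one 225 bp upstream of sel-12 (signal 95.4) was found in replicate 1 only.

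Among adhesion and guidance genes, the Robo receptor gene sax-3 had the strongest site of its list, 1575 bp upstream, with the core word (pooled signal 136, 81.7 in replicate 1 and 59.6 in replicate 2). The ephrin gene vab-2 and the guanine nucleotide exchange factor gene unc-73 had sites with the word, 1713 bp upstream and 319 bp downstream, and the syndecan gene sdn-1 one without, 550 bp upstream. For the cadherins, cdh-1 and cdh-12 had sites with the word 1780 and 1710 bp upstream, while cdh-9 and the Flamingo homologue fmi-1 had intronic sites without it. The first site of the range lay 5000 bp upstream of cdh-4, beyond the distance used for assignment.

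Epidermal and junctional genes were led by ajm-1, which encodes an apical junction protein, with 3 sites. The first (pooled signal 139), 494 bp upstream, held the word and had no summit in replicate 2, where replicate 1 had a signal of 94.7. The alpha spectrin gene spc-1 had a site 810 bp upstream without the word, mua-3, a gene for an attachment protein of the epidermis, an intronic one with it, and the spectraplakin gene vab-10 one 845 bp upstream without it. The GATA factor genes egl-18 and elt-6, which act in the epidermis, had intronic sites without the word. Of the 10 genes in the glia list, grl-2 and lin-26 were reached.

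Transcription factor genes of neurons were reached at daf-19, the RFX factor of ciliated neurons (327 bp upstream), egl-44, a TEAD factor (367 bp upstream), egl-46, a zinc finger factor (759 bp downstream, with the core word) and hlh-2, the E protein (1131 bp upstream). Homeobox genes with the strongest sites were ceh-58, 1334 bp upstream with the word, ceh-38, vab-15, an Msx-type gene, 782 bp upstream with the word, and ceh-39. ceh-58 and daf-19 were also reached by a thresholded peak, and the other homeobox and neuronal genes named in this paragraph were not. Among genes named in other paragraphs for a sub-threshold site, lin-17, sdn-1, fmi-1, elt-6, egl-27 and ceh-43 were also reached by a thresholded peak.

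The genes with the most sites were egl-27, with 5 within reach, shc-2, zfh-2 and aqp-2 with 4 each, followed by 11 genes with 3, of which ajm-1 had the site of highest signal. At egl-27, which encodes a protein related to the MTA chromatin factors, pooled signals were 118.8, 105, 99.6, 99.1 and 96.9, and 1 of the 5 held the core word. The site with signal 99.6 had no summit in either replicate's list, and its interval overlapped that of the site with 96.9. A thresholded peak also reached egl-27. At aqp-2, an aquaporin gene, 3 of the 4 had a summit in replicate 1 only. Its sites with pooled signals of 101.2 and 99.3 had intervals that overlapped, so they may not be separate. Among the 12 strongest sites with the word, a summit in both replicates and a start within 2000 bp, genes beside those printed above included fkh-7, a forkhead gene, sax-3, dhs-22, C05G5.5, Y94H6A.5 and W09G3.6.

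Muscle genes were reached at the obscurin-type gene unc-89, tropomyosin gene lev-11, actin gene act-1 and troponin T gene mup-2, and 3 of these 4 sites held the core word. Of the 2 pharynx genes reached, of 9 in the list, the site of pha-1 held it and that of peb-1 did not. At ribosomal protein genes, 9 of 79, with 3 of 10 sites holding the word, the strongest were 330 bp upstream of rpl-6 and 248 bp upstream of rpl-41.2, both without it. Histone genes were reached at 4 of 72 (5.56%, near the share of all genes): his-24, his-72, his-62 and his-71. None of these 4 sites held the word, against 38.9% of all the sub-threshold sites, and 4 sites are too few to compare. The muscle, pharynx and ribosomal protein counts were not tested against that share either. The strongest collagen, nuclear receptor, neuropeptide and chemoreceptor sites with the word were at col-86, nhr-208, flp-15 and srw-95.

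The loci of the transgene and of known dopamine targets were named whatever their values. ceh-43 itself had 2 sites within reach, in a coding exon 151 bp downstream (pooled signal 123, found in replicate 2 only) and in an intron 1360 bp downstream (112, with 29.7 in replicate 1 and 53.1 in replicate 2), both without the word. unc-119, which the rescue transgene carries, had 1 intronic site with the word (110, with 35.1 and 66.98 in the replicates). Extra gene copies and bound protein cannot be told apart at these loci. No site reached cat-1, cat-2, bas-1 or dat-1, which encode proteins of dopamine synthesis and transport, nor ast-1, which encodes an ETS factor of these neurons.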

How the data were processed

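ChIP-seq peak lists of strain OP699 embryos on ce11 were used: a thresholded list, a relaxed list from both replicates and a relaxed list per replicate (29979 and 26127 rows), which per the text files deposited with them used 1 control for both replicates. The authors deposited a signal value per peak, on a scale the labels and lists do not state, and a −log10 q-value deposited beside it. The aligner, the peak caller and what the control was: not given in the sources used here.

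Computed here: ranks by signal (ties in file order), word searches on both strands within 50 bp of summits, annotation of summits in order of precedence (promoter first, then UTRs and coding exons in gene order, introns, other transcripts and last intergenic) from Ensembl release 115, and sequence from RefSeq of the same assembly. Shares were tested with exact McNemar and Fisher's exact tests, 2-sided, with Benjamini-Hochberg adjustment and a threshold of 0.05, in Python 3.11.15 with scipy 1.17.1. Intervals are exact (Clopper-Pearson, 95%) for shares and Newcombe for differences, and cover counting error over sites only. The word tests were tested on simulated sequences.

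The McNemar flank lay on 1 side of each site, picked by a fixed seed. This draw was coded in 2 ways, and 16 draws were inspected after results were seen: flanks with the core word numbered 176 to 232. The first draw run, with 208, was restored as the reported value after the second way, which gave 176, proved the lowest of the 16, and the mean of both flanks is given beside it. Members, gene lists and words were chosen with earlier results of these data known. Of the symbols in the lists, cdh-11 and opt-2 matched no gene. Genes were named by a rule: the 12 strongest sites with the core word, a summit in both replicates and a start within 2000 bp, up to 4 genes per list, the 5 genes with the most sites within reach (ties by highest signal), and 7 genes whatever their values. The sequence of some of these sites is not reported here. Alternatives changed windows, flanks, words, promoter length, distances and sites, and left out each replicate.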

Additional observations from a re-analysis of the deposited data

How the results depend on the processing

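The core word was higher at summits than at flanks under all 22 alternatives run, from 1.18-fold (TAAT alone) to 5.84-fold (TAATTA), with exact McNemar p from 1.1e-137 to 4.8e-13. Over the 16 draws of the flank side, p ran from 2.0e-109 to 9.6e-84; the draw indexed by rank, the most favourable, had the word in 9.03% of flanks and the one kept 10.7%. Of the words tested, TTATAA and TATTAA were called in 1 of 16 draws, AATTTA in 2, ATATTA in 4, ATATAT in 5, TGATAA in 14, and TGATNNAT and ATTATA in 15, so their calls depend on the flank; with the flank at higher coordinates TGATAA was not past the threshold. CCGGAA turned to 4.29% of summits in windows at most 50% soft-masked and was lost without shared runs; CANNTG passed in the former (36.9%). TGACTCA, never past the threshold, turned direction against the lower flank (0.718%), the draw by rank (0.718%) and in less soft-masked windows (0.884%).

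Against the thresholded peaks the core-word difference was -1.20 points for TAATTA only, -4.85 outside promoters and 5.40 with tRNA and mitochondrial rows kept, where it passed the threshold (adjusted Fisher's exact p = 0.0037); leaving out each replicate gave -1.08 to 1.02. Support in both replicates was 55.6% within 50 bp, 95.7% within 200 bp and 18.8% among the 3000 highest of each. Promoters held 28.8% at 500 bp and 53.1% at 2000 bp, where the intergenic difference was -0.719 points. With 25-bp windows the intergenic core-word difference was 5.36 points and not past the threshold, and with 100-bp windows the intronic one was 6.08 and past it. The cause of these changes was not tested. The runs on soft-masked windows, shared runs, promoter and other sites, the 2 transgene loci and the draw by rank were chosen after seeing the data. Samples could not be paired between groups because there is 1 group, and the McNemar tests pair windows within a site only. Read depth is unknown, so no limit of detection is given.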
